A study of Mus musculus with 50 samples.

Results

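The clustered protocadherin locus is a stretch of mouse chromosome 18 that holds the Pcdha, Pcdhb and Pcdhg gene arrays side by side. All measured CpGs in a window around the 3 arrays (mm10) were taken as its members by position alone, whatever their methylation, and they ran from position 36932479 to 37842694. There were 218 such CpGs of 205304 measured in all, and they fell into 47 of the 51038 clusters of neighbouring CpGs. Of the members, 32 lay in the Pcdha array, 52 in the Pcdhb array and 110 in the Pcdhg array. The other 24 lay between or beside the arrays.

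Clustered protocadherins are adhesion proteins of the cadherin superfamily that sit in the cell membrane. In the Pcdha and Pcdhg arrays, a series of variable exons, each with a promoter of its own, is followed by constant exons that are spliced to whichever variable exon is transcribed. Each Pcdhb gene is made from an exon of its own with no shared constant part. In neurons, each cell uses a small set of the so-called alternate variable exons, whereas the C-type exons at the end of the Pcdha and Pcdhg arrays are used more evenly. Methylation of a variable exon and its promoter is known to go with its silencing, and it interferes with binding of CTCF, a factor that shapes DNA loops at these arrays.

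The assay was RRBS, or reduced representation bisulfite sequencing, and the tissue was soleus, a slow muscle of the hind leg, of adult male and female mice on a C57BL/6 background. Both genotypes carried floxed alleles of Dnmt3a, which encodes an enzyme that methylates unmethylated DNA. WT mice had no Cre transgene, and mD3AKO mice carried Cre under the muscle creatine kinase promoter, which comes on late in muscle differentiation, so that satellite cells and cells other than muscle fibres probably keep the gene. Muscles were taken at rest, after a sham session on the treadmill, or at 10, 30 or 60 min after treadmill running. Calls from 44 of 50 samples were used, of which 21 were WT (5 at rest and 5, 5 and 6 at the 3 times) and 23 mD3AKO (5, 5, 7 and 6). The tissue was bulk muscle, so an intermediate level cannot tell a mixture of cells from a mixture of alleles within cells, and bisulfite does not separate methylcytosine from hydroxymethylcytosine.

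The number of calls per sample was 12819404 to 41285655 over all CpGs and 11589 to 42360 over the locus. A CpG of the locus had 8 to 904 calls in a sample, with a median of 82. Over the CpGs outside the locus, WT muscles averaged 25.4% ± 0.781 (SD, n = 21) and mD3AKO muscles 24.5% ± 0.700 (SD, n = 23). This gap of -0.869 ± 0.224 (SE) percentage points passed the permutation test (two-sided, p = 0.00033). RRBS calls do not show whether Dnmt3a was deleted. The study itself reports lower Dnmt3a mRNA in soleus and less DNMT3A protein in skeletal muscle of mD3AKO mice. The 27 clusters assigned to 14 genes that methylate DNA or bind at these arrays, Dnmt3a among them, held 0 clusters called for genotype. Of the promoters of muscle fibre markers, 3 of 9 were covered, at 1.45 to 11.5% in WT and 1.14 to 17.4% in mD3AKO. Of the markers of other cells of muscle 1 of 8 was covered, at 0.848 and 1.55%, and of the neuronal markers 2 of 3, at 2.11 to 59.6% and 1.85 to 54.0%. Most marker promoters thus had no covered CpG, and the labelled tissue was not checked further.

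RRBS reaches only CpGs near MspI sites, and the 218 members were a small share of the 11265 CpGs of the reference in this window. They covered 28 of the 58 variable or Pcdhb exons. These were 4 of 12 alternate and 1 of 2 C-type exons of Pcdha, 7 of 22 Pcdhb exons, and 14 of 19 alternate and 2 of 3 C-type exons of Pcdhg. By position, 94 CpGs lay in alternate exons, 29 in C-type exons, 44 in Pcdhb exons and 9 in the 500 bp before such an exon. A further 18 lay elsewhere within the arrays, and no CpG lay in a constant exon.

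The first question was how methylation was laid out along the arrays. The C-type exons were nearly free of methylation and the alternate exons were partly methylated. Over the 44 muscles, alternate exons stood at 45.4% ± 2.75 (SD) and C-type exons at 2.07% ± 1.15. The difference of 43.3 ± 3.07 percentage points (SD over animals) had the same direction in 44 of 44 muscles (two-sided sign-flip permutation test, adjusted p = 1e-05, the smallest these permutations can give after rounding). It was 60.0 ± 7.40 within the Pcdha array, on 13 alternate and 8 C-type CpGs, and 41.1 ± 3.09 within the Pcdhg array, on 81 and 21 CpGs. Both held in 44 of 44 muscles (adjusted p = 1e-05, same permutation test). These p-values treat the animals as replicates and the exons as given. The 2 classes were also sampled at different distances from the exon start, so the differences above mix exon type with position. In the first 500 bp, 23 C-type CpGs stood at 0.622% ± 0.701 (SD, n = 21) in WT. There, 43 alternate CpGs of Pcdhg stood at 31.3% ± 3.57 and 5 of Pcdha at 70.3% ± 9.63.

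**Figure D1:**
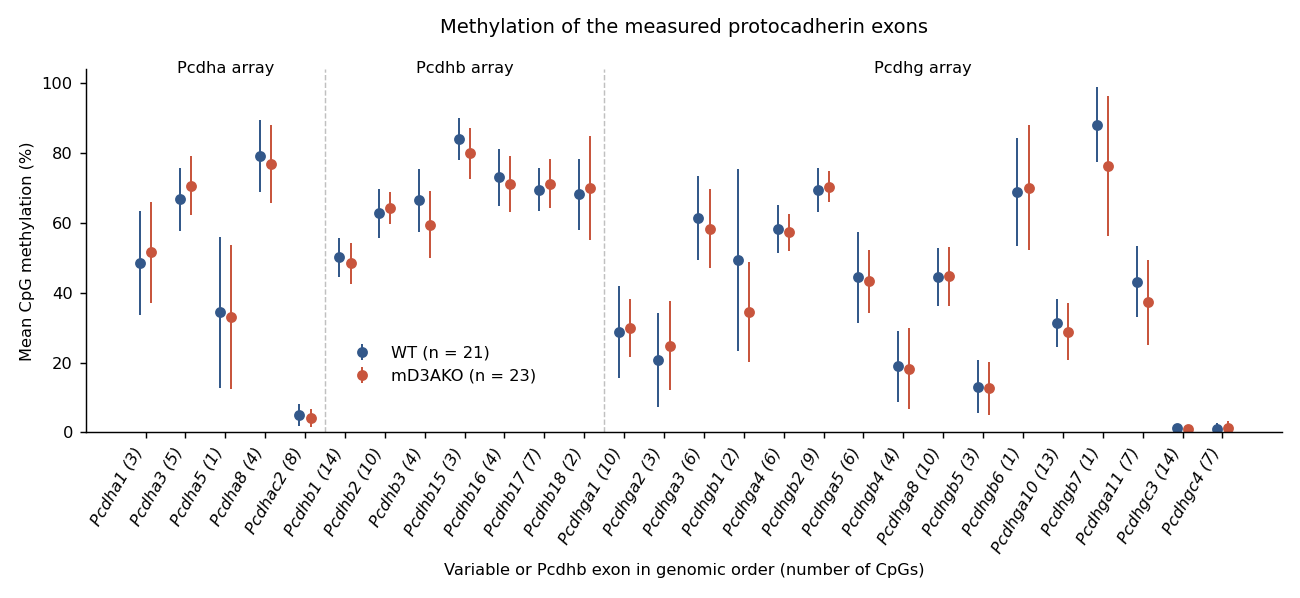
Mean CpG methylation (%) of each measured variable or Pcdhb exon, in genomic order, with the number of CpGs in brackets. Points are means and bars SDs over 21 WT (blue) and 23 mD3AKO (red) muscles. The C-type exons Pcdhac2, Pcdhgc3 and Pcdhgc4 lie between 0.922 and 4.98%, below all alternate and Pcdhb exons, and the WT and mD3AKO bars overlap at each exon.

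Within the Pcdha array, which encodes the alpha protocadherins, the level of the covered alternate exons in WT ran from 34.5% ± 21.6 (SD, n = 21) at Pcdha5, on 1 CpG, to 79.2% ± 10.3 at Pcdha8, on 4. Pcdha1 stood at 48.5% ± 14.8 and Pcdha3 at 66.8% ± 8.95. The means of Pcdha5 and Pcdha1 differed by less than the SD between animals of either exon, and those of Pcdha1 and Pcdha3 by more. The C-type exon Pcdhac2 (chr18:37143503-37146530) carried the largest number of CpGs of the array. Its level in WT was 4.98% ± 3.09, with a lowest muscle of 1.25%, a median of 4.05% and a highest of 11.8%. In mD3AKO it was 4.19% ± 2.57 (SD, n = 23), with 0.103, 4.25 and 8.59%. The ranges of both genotypes overlapped from 1.25 to 8.59%. Its 7 CpGs at 301 to 371 bp from the exon start each lay at 0.0 to 2.45% in WT, and the level of the exon came mostly from its CpG at 1369 bp, which stood at 33.5% ± 20.3.

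The Pcdhb exons, each the coding exon of a separate beta protocadherin, stood at 62.8% ± 3.30 (SD, n = 21) in WT, near the alternate exons of Pcdha at 63.9% ± 7.05 and above those of Pcdhg at 43.0% ± 2.68. Among exons with at least 5 CpGs, Pcdhb1 was lowest in WT at 50.1% ± 5.67 and Pcdhb17 highest at 69.6% ± 6.02, with Pcdhb2 between them at 62.8% ± 7.07. The remaining 4 exons had 2 to 4 CpGs each. In WT, Pcdhb15 was at 84.0% ± 6.07, Pcdhb16 at 73.1% ± 8.16, Pcdhb18 at 68.2% ± 10.1 and Pcdhb3 at 66.4% ± 9.03. Pcdhb17, Pcdhb18 and Pcdhb3 followed each other by less than the SD between animals.

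The Pcdhg array, which encodes the gamma A, B and C protocadherins, held both extremes. Its alternate exons ran in WT from 13.1% ± 7.66 (SD, n = 21) at Pcdhgb5, on 3 CpGs, to 88.2% ± 10.8 at Pcdhgb7, on 1 CpG. Among its exons with at least 5 CpGs, Pcdhgb2 (chr18:37689828-37692369) was highest at 69.3% ± 6.27, with a lowest muscle of 56.8%, a median of 69.0% and a highest of 82.2%. The C-type exon Pcdhgc4 (chr18:37815079-37817983) was lowest, at 0.943% ± 1.67, with 0.0, 0.332 and 6.46%. No WT muscle had a level at Pcdhgc4 that came near any of its levels at Pcdhgb2. The other covered C-type exon, Pcdhgc3 (chr18:37806410-37808977), carried 14 CpGs, the most of any exon of the array, and stood at 1.30% ± 1.16, with 0.0, 1.05 and 3.92%. In the first 69 bp of Pcdhgc3 the WT level of 9 CpGs was 0.0 to 0.823%, and its 5 CpGs from 965 to 1186 bp were at 0.260 to 6.77%.

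The alternate exons of Pcdhg spread widely in level. In genomic order in WT, Pcdhga1 was at 28.8%, Pcdhga2 at 20.7%, Pcdhga3 at 61.4%, Pcdhgb1 at 49.3%, Pcdhga4 at 58.2%, Pcdhgb2 at 69.3%, Pcdhga5 at 44.4% and Pcdhgb4 at 18.9%. The exons that followed were Pcdhga8 at 44.5%, Pcdhgb5 at 13.1%, Pcdhgb6 at 68.8%, Pcdhga10 at 31.4%, Pcdhgb7 at 88.2% and Pcdhga11 at 43.2%. Low and high exons of both the A and the B type lay along the array. RRBS sampled a different stretch of each exon, so these values compare stretches and not whole exons. The low exons Pcdhgb5, Pcdhgb4 and Pcdhga2 were sampled at 102 to 172, 142 to 212 and 4 to 60 bp from their starts. Pcdhgb7 was sampled at 2576 bp and Pcdhgb2 at 1160 to 1563 bp.

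Position within the exon differed along with these levels, and CpGs further from the exon start were more methylated. For the alternate and Pcdhb exons together, WT stood at 16.0% ± 5.52 (SD, n = 21) over 8 CpGs in the 500 bp before the exon and at 35.7% ± 3.88 over 60 CpGs in its first 500 bp. It was 53.9% ± 4.90 over 28 CpGs from 500 to 1000 bp and 71.6% ± 3.83 over 23 CpGs from 1000 to 1500 bp. Further in, it was 67.7% ± 4.39 over 16 CpGs from 1500 to 2000 bp and 62.9% ± 4.94 over 11 CpGs beyond 2000 bp. The mD3AKO values at these 6 distances were 14.6, 33.7, 51.9, 72.5, 68.2 and 63.9%. Both genotypes were thus highest between 1000 and 1500 bp. Across the 138 exon CpGs that are not C-type, Spearman's rho of WT level with distance was 0.633 and with the local ratio of observed to expected CpGs it was -0.396. CpGs of a cluster share reads and the exons differ in which part was sampled, so these are descriptions only. The Pcdha exons did not follow the trend, with 70.3% ± 9.63 over 5 CpGs in the first 500 bp and 59.8% ± 8.51 over 6 CpGs beyond 2000 bp.

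**Figure D2:**
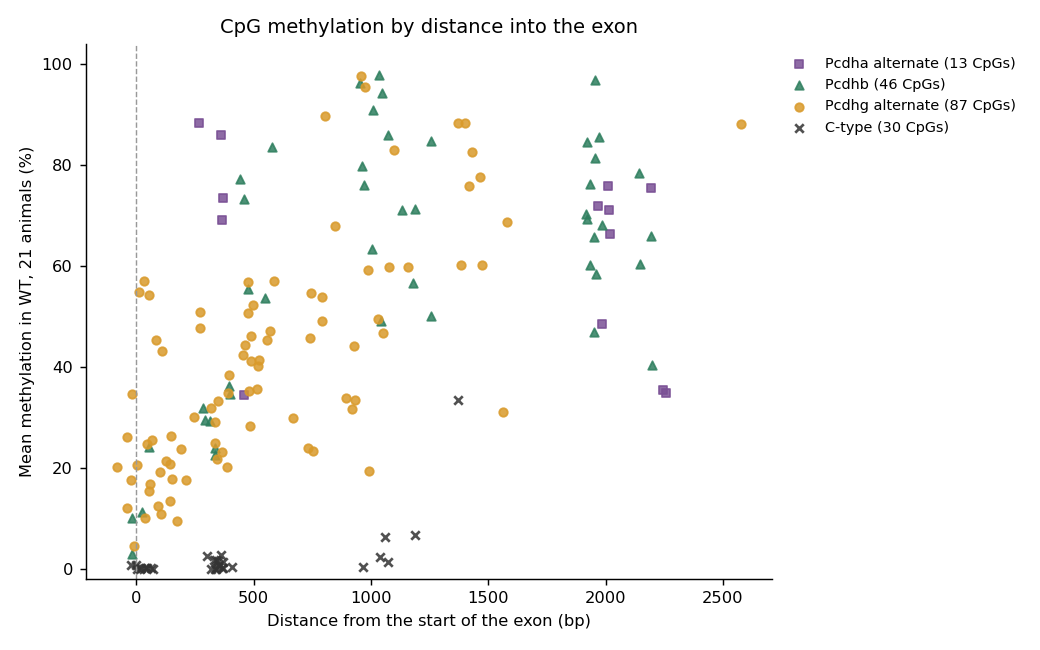
WT level (%, mean of 21 muscles) of each CpG in or just before an exon against its distance from the exon start (bp). Each point is a CpG, coloured by array, with C-type exons as crosses. Pcdhg and Pcdhb points rise from below 35% before the start to between 46.8 and 97.8% at 1000 to 1500 bp, whereas C-type crosses stay below 7% except 1 CpG of Pcdhac2 at 33.5%.

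The same rise was seen within single exons that were sampled both near their start and further in. Their CpGs reached 1951 bp at most, so they do not cover the distances beyond 2000 bp. In Pcdhb1, 7 CpGs at 285 to 398 bp stood at 29.7% ± 9.68 (SD, n = 21) in WT and 7 CpGs at 953 to 1254 bp at 70.5% ± 6.29. In Pcdhb2, 5 CpGs from -20 to 443 bp, of which 2 lie before the exon, were at 25.1% ± 8.77 and 7 CpGs from 1007 to 1951 bp at 73.6% ± 8.37. In Pcdhga3, 4 CpGs at 453 to 488 bp were at 43.9% ± 17.8 and 2 CpGs at 957 to 974 bp at 96.6% ± 5.52. In each of these exons the far part was higher in 44 of 44 muscles. In Pcdhga8 the CpG at 153 bp was at 17.9% ± 20.5 and 9 CpGs at 920 to 1097 bp were at 47.4% ± 8.79, higher in 42 of 44. These 4 were all the alternate and Pcdhb exons that had CpGs both under 500 bp and at 800 bp or more, limits set after the levels had been seen, and no test was run on them.

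The 500 bp before the exons, which hold the promoters, were low. For Pcdhb only Pcdhb2 had CpGs there, 2 of them, at 6.32% ± 7.71 (SD over the 44 muscles) against 62.3% ± 3.10 over the Pcdhb exons. For the alternate exons of Pcdhg, 6 CpGs before Pcdhga2 and Pcdhga11 stood at 18.3% ± 6.30 against 42.3% ± 2.91 over the exons. The differences were 56.0 ± 8.23 and 24.0 ± 7.03 percentage points and had the same direction in 44 of 44 muscles (sign-flip permutation test, two-sided, adjusted p = 1e-05 for both). They rest on 3 promoters. The exon CpGs lay mostly in other genes or further into the exon, so the differences mix these. In WT, Pcdhb went from 6.54% before the exon to 37.4% ± 7.24 (SD, n = 21) over 12 CpGs in its first 500 bp. Alternate Pcdhg exons went from 19.2% to 31.3% ± 3.57 over 43 CpGs. The exons of Pcdhga2 and Pcdhga11 themselves stood at 20.7 and 43.2% in WT. The p-values treat the animals as replicates and the CpGs as given. The CpG before Pcdhgc3 was at 0.760% ± 1.91 in WT, and no such CpG of the Pcdha array was covered.

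Outside exons and their promoters, most covered CpGs of the arrays were highly methylated. The 18 CpGs elsewhere within the arrays had a mean of 75.7% ± 3.31 (SD, n = 21) in WT, with 11 of them at 80% or more and 7 at 20 to 80%. The lowest, at position 37510226 in the Pcdhb array, was at 25.4% ± 16.2. A cluster of 5 CpGs in an exon of Gm36858 (chr18:36980330-36980394) was at 95.6% ± 3.22. The CpG at position 37156342, just after the first constant exon of Pcdha, was at 44.8% ± 17.6, and the only covered CpG of Pcdhg outside exons and promoters (position 37803208) was at 52.8% ± 24.6. Taf7, a single-copy gene between the Pcdhb and Pcdhg arrays that encodes a subunit of the general transcription factor TFIID, was unmethylated at its promoter. Its 16 CpGs (chr18:37643935-37644200) each lay at 0.0277 to 1.36% in WT, with a cluster level of 0.511% ± 0.425. The next covered cluster, in an exon of 3222401L13Rik before Pcdhga1, was likewise low, at 0.632% ± 1.55.

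The share of partly methylated CpGs was large. In WT, 119 of the 218 members (54.6%) had a mean level from 20 to 80%, beside 20.0% of all CpGs measured. Levels under 20% were held by 29.8% of the members and 64.9% of all CpGs, and levels of 80% or more by 15.6 and 15.1%. The median level was 37.6% in the locus and 2.06% over all CpGs. By class, 73 of 94 CpGs of alternate exons, 32 of 44 of Pcdhb exons and 1 of 29 of C-type exons were partly methylated. These shares depend on where RRBS reads fall and were not tested. Among genes of the same superfamily, 15.5% of the 238 CpGs assigned to 10 non-clustered protocadherins and 25.8% of the 639 CpGs assigned to other cadherins were partly methylated. In the Hox genes, which also lie in arrays, the share was 15.9% of 546.

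**Figure D3:**
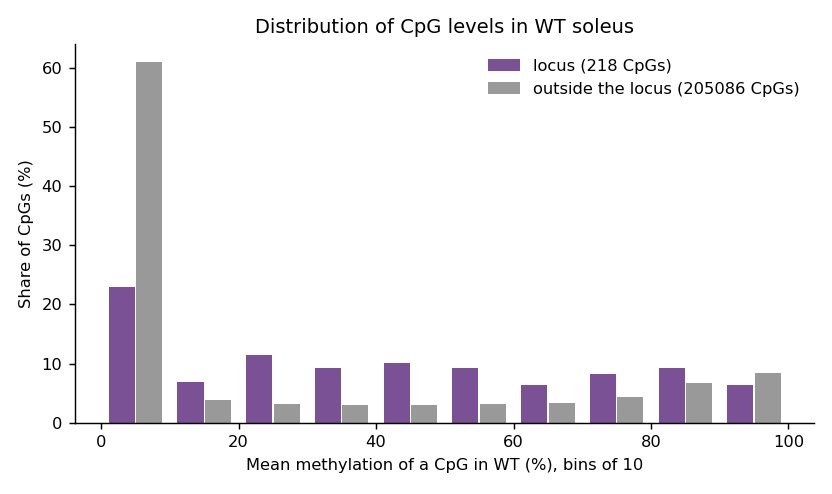
Share of CpGs (%) by mean WT level in bins of 10%, for the 218 CpGs of the locus (purple) and the 205086 CpGs outside it (grey). Outside the locus most CpGs are in the lowest bin, whereas the CpGs of the locus are spread over all bins.

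The second comparison asked whether loss of Dnmt3a in muscle changed methylation of the arrays. No array, exon class or cluster passed the test for genotype. The level of the whole locus was 41.1% ± 1.64 (SD, n = 21) in WT, with a lowest muscle of 37.6%, a median of 41.0% and a highest of 44.7%. In mD3AKO it was 40.3% ± 1.43 (SD, n = 23), with 37.4, 40.4 and 42.9%. The ranges overlapped, and 15 of 23 mD3AKO muscles were below the WT mean. The difference was -0.806 ± 0.467 percentage points (SE, permutation test, two-sided, p = 0.0888, adjusted p = 0.346 over 10 sets of CpGs). At CpGs with 20 or more calls in every sample it was -0.144 (adjusted p = 0.844, permutation test).

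The Pcdhg array differed by -1.17 ± 0.632 percentage points (SE), from 33.4% ± 2.06 (SD, n = 21) in WT to 32.3% ± 2.13 (SD, n = 23) in mD3AKO, with 17 of 23 mD3AKO muscles below the WT mean (permutation test, adjusted p = 0.346). The Pcdhb array differed by -1.07 ± 0.889, from 61.6% ± 3.17 to 60.5% ± 2.68 (adjusted p = 0.469, same permutation test). The Pcdha array differed by 0.910 ± 0.983, from 54.8% ± 3.17 to 55.7% ± 3.35 (adjusted p = 0.497, same permutation test). With all calls pooled, so that deeply covered CpGs count more, the Pcdha difference was 5.18 (adjusted p = 0.126, permutation test). Samples numbered 1 to 25, which are all at rest or 60 min, gave -0.190 for Pcdha, -2.41 for Pcdhb and -0.871 for Pcdhg. Samples 26 to 50, all at 10 or 30 min, gave 2.03, 0.343 and -1.40. The sign was thus the same in both sets of samples only for Pcdhg, and none passed the test in either.

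By class, the alternate exons differed by -1.02 ± 0.825 (SE), the Pcdhb exons by -0.934 ± 0.942, the upstream windows by -1.05 ± 1.39 and the C-type exons by -0.296 ± 0.352 percentage points. The rest of the arrays differed by 0.00683 ± 0.967 and the CpGs outside the arrays by -0.869 ± 0.524. The adjusted p-values of these classes were 0.346 to 0.994 in the permutation test. Of the 28 covered exons, 17 were lower in mD3AKO. Leaving out WT muscle 9 at 60 min took the upstream windows to -0.449, and leaving out WT muscle 18 at 60 min took them to -0.654 and the C-type exons to -0.148. The Pcdhb exons were at -0.593 without mD3AKO muscle 27 at 30 min and at -1.43 without WT muscle 42 at 10 min, and the Pcdha array at 0.587 without mD3AKO muscle 19 at 60 min. For the C-type exons the difference was -1.28 in samples 1 to 25 and 0.713 in samples 26 to 50, and their course over time is given further on. Differences of the size of these standard errors were not detectable with these samples.

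**Figure D4:**
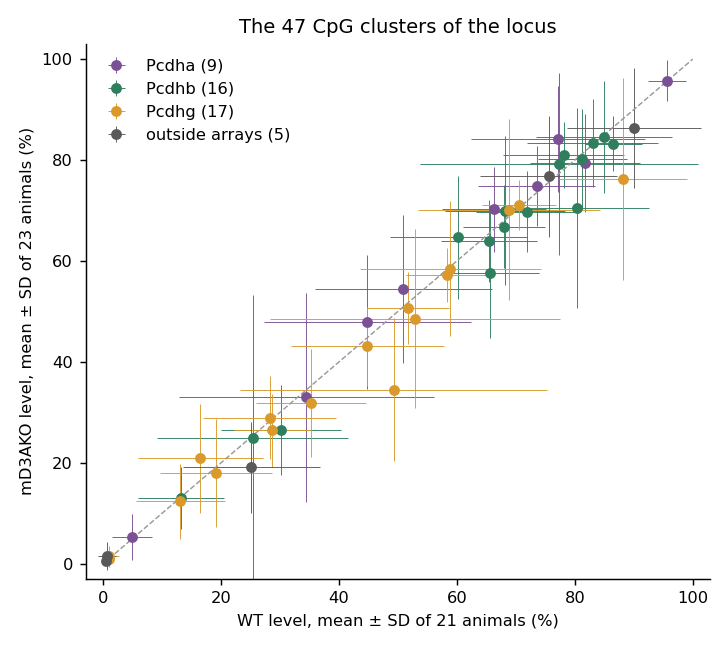
Level of the 47 clusters of the locus in mD3AKO (%, vertical) against WT (%, horizontal), by array. Points are means, bars SDs over 23 and 21 muscles, and the dashed line marks equal levels. The points follow the line from 0.511 to 95.6% in WT, and the point farthest below it, at 49.3% in WT and 34.5% in mD3AKO, is Pcdhgb1.

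Partly methylated CpGs were compared with their like elsewhere, a comparison added after the data had been seen. The 117 members with a mean level from 20 to 80% over the 44 muscles differed by -1.37 ± 0.793 percentage points (SE) between genotypes, and the 40660 such CpGs outside the locus by -2.61 ± 0.830. The gap between these differences was 1.24 ± 0.913 and did not pass the test (permutation test, two-sided, p = 0.177). It was 1.36 ± 0.846 beside the 9233 outside CpGs in clusters of at least 20 CpGs (permutation test, p = 0.112). The test thus separated neither a smaller nor an equal difference in the locus.

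Tested cluster by cluster with edgeR's quasi-likelihood test, 0 of 47 clusters of the locus passed an adjusted p of 0.05 for genotype, beside 1.04% of all 51038 clusters. At an unadjusted p under 0.05 there was 1 of 47, and the likelihood ratio test and limma also called 0, with 3 each at that level. The log2 odds ratio of methylation, mD3AKO over WT, was below 0 in 61.7% of the clusters of the locus and in 62.3% of all clusters. Its median was -0.08 in the locus and -0.15 over all clusters.

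The 5 clusters with the lowest genotype p are given with their ranges. Pcdhgb1 (chr18:37680503-37680506, 2 CpGs at 270 to 273 bp of the exon) had a lowest level of 10.0%, a median of 54.2% and a highest of 100% in WT, and 6.60, 35.5 and 55.6% in mD3AKO. The ranges overlapped, and the WT muscles spread widely, with a SD of 26.0 (n = 21). The log2 odds ratio was -0.98 ± 0.47 (SE, edgeR adjusted p = 0.496). It was -0.23 in samples 1 to 25 and -1.73 in samples 26 to 50. In WT the cluster was at 72.3% ± 17.6 (SD, n = 5) at 10 min and at 37.4% ± 30.1 (SD, n = 6) at 60 min, with rest and 30 min between. In mD3AKO the 4 times gave 27.6 to 46.0%.

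Pcdhb3 (chr18:37301256-37301375, 4 CpGs) ranged from 54.9 to 86.2% in WT, with a median of 65.1%, and from 21.8 to 80.3% in mD3AKO, with a median of 57.4%. Of the mD3AKO muscles, 7 were below all WT muscles, and the log2 odds ratio was -0.47 ± 0.24 (SE, edgeR adjusted p = 0.533). The single CpG of Pcdhgb7 at 2576 bp (position 37754176) ranged from 70.3 to 100% in WT and from 22.2 to 100% in mD3AKO, with 6 mD3AKO muscles below all WT muscles. Its log2 odds ratio was -1.24 ± 0.66 (SE, edgeR adjusted p = 0.581). Pcdhb15 (chr18:37475462-37475513, 3 CpGs at 1922 to 1973 bp of the exon) ranged from 78.0 to 94.7% in WT and from 71.0 to 93.2% in mD3AKO, with a log2 odds ratio of -0.38 ± 0.23 (SE, edgeR adjusted p = 0.65). The fifth, 2 CpGs in an exon of 3222401L13Rik before Pcdhga1, had its highest muscle at 5.29% in WT and at 8.93% in mD3AKO, and its log2 odds ratio was 1.31 ± 0.79 (SE, edgeR adjusted p = 0.668). Its means at rest, 10, 30 and 60 min were 0.0, 0.184, 1.06 and 1.18% in WT. In mD3AKO they were 5.01, 0.314, 1.03 and 0.168%, so mD3AKO was higher mainly at rest and lower at 60 min. In all 5 clusters the muscles of both genotypes overlapped.

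The clusters with the most CpGs in each array were close to even. The Pcdhac2 cluster stood in WT at 4.91% ± 3.39 (SD, n = 21), as against 5.25% ± 4.50 (SD, n = 23) for mD3AKO, with a log2 odds ratio of 0.13 ± 0.42 (SE). The 2 clusters of Pcdhb1, with 7 CpGs each, had log2 odds ratios of -0.26 ± 0.25 and -0.08 ± 0.20. Pcdhgc3 with the CpG before it had 0.999% ± 0.836 in WT and 0.922% ± 0.761 in mD3AKO, with a log2 odds ratio of -0.04 ± 0.48.

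Among single CpGs, edgeR called 0 of 218 for genotype beside 0.261% of all CpGs, with 4 at an unadjusted p under 0.05. The likelihood ratio test called 0 with 8, and limma 0 with 13. The lowest p belonged to 2 CpGs of the Taf7 promoter and 1 before Pcdhga11. At position 37643955 of Taf7, WT muscles reached 7.91% with a median of 0.0%, and mD3AKO muscles at most 0.442% (edgeR adjusted p = 0.446). At position 37643975 the highest muscles were at 8.71 and 4.42% (edgeR adjusted p = 0.669). At position 37755692, 39 bp before the Pcdhga11 exon, levels ran from 9.86 to 47.9% with a median of 24.9% in WT and from 0.629 to 46.2% with a median of 14.5% in mD3AKO (edgeR adjusted p = 0.623). Of the other 4 covered CpGs before Pcdhga11, 3 had mean differences above 0, of 0.0290 to 1.87 percentage points, and that at 18 bp before the exon had -6.62.

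By the deposited assignment, 22 promoters had CpGs in the locus, and 0 of them were called for genotype by edgeR beside 0.789% of all promoters, with 1 at an unadjusted p under 0.05, which was Pcdhgb1. The likelihood ratio test and limma called 0 as well, with 0 and 1 at that level. Those promoters reach far upstream, so that the promoter of Pcdhb16 consists of the CpGs in the Pcdhb15 exon and that of Pcdhb18 of CpGs in the Pcdhb17 exon. Of 2 gene bodies 0 were called, beside 1.35% of all gene bodies, again with 0 by the likelihood ratio test and limma. At an unadjusted p under 0.05 edgeR had 1, which was Pcdha1, beside 9.73% of all gene bodies. The body of Pcdha1 (32 CpGs) went from 56.5% ± 6.95 (SD, n = 21) to 61.7% ± 6.29 (SD, n = 23), with a log2 odds ratio of 0.31 ± 0.14 (SE, edgeR adjusted p = 0.445). These are the CpGs of the Pcdha array with calls pooled, so this repeats the pooled difference of 5.18 given above. The unweighted difference over them was 0.910. The body of Gm42416, to which 183 CpGs were assigned, went from 39.1% ± 2.97 to 37.6% ± 3.46.

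The third comparison followed the arrays after running. No array passed the test for time. The F statistic of time was 0.834 for the whole locus, 0.379 for Pcdha, 1.04 for Pcdhb and 0.955 for Pcdhg (permutation within genotype, adjusted p = 0.648, 0.768, 0.648 and 0.648). In WT, the Pcdhb array was at 62.1% ± 1.70 (SD, n = 5) at rest, 58.6% ± 3.63 (n = 5) at 10 min, 62.5% ± 1.35 (n = 5) at 30 min and 62.9% ± 3.67 (n = 6) at 60 min. The difference of -3.53 points between 10 min and rest had the lowest p of 24 comparisons with rest (exact permutation test, two-sided, p = 0.0476, adjusted p = 0.978). In mD3AKO the Pcdhb array was at 60.1 to 60.9% at the 4 times. The WT group at 10 min includes a muscle at 52.3%, below the 59.0 to 61.7% of the other 4. In mD3AKO the Pcdhg array was at 33.8% ± 1.45 (n = 5) at rest and 31.1% ± 2.91 (n = 5) at 10 min (exact permutation test, adjusted p = 0.978). The genotype difference at each time had adjusted p-values of 0.653 to 0.937 in exact permutation tests, and the largest was 3.48 points for Pcdha at 30 min.

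**Figure D5:**
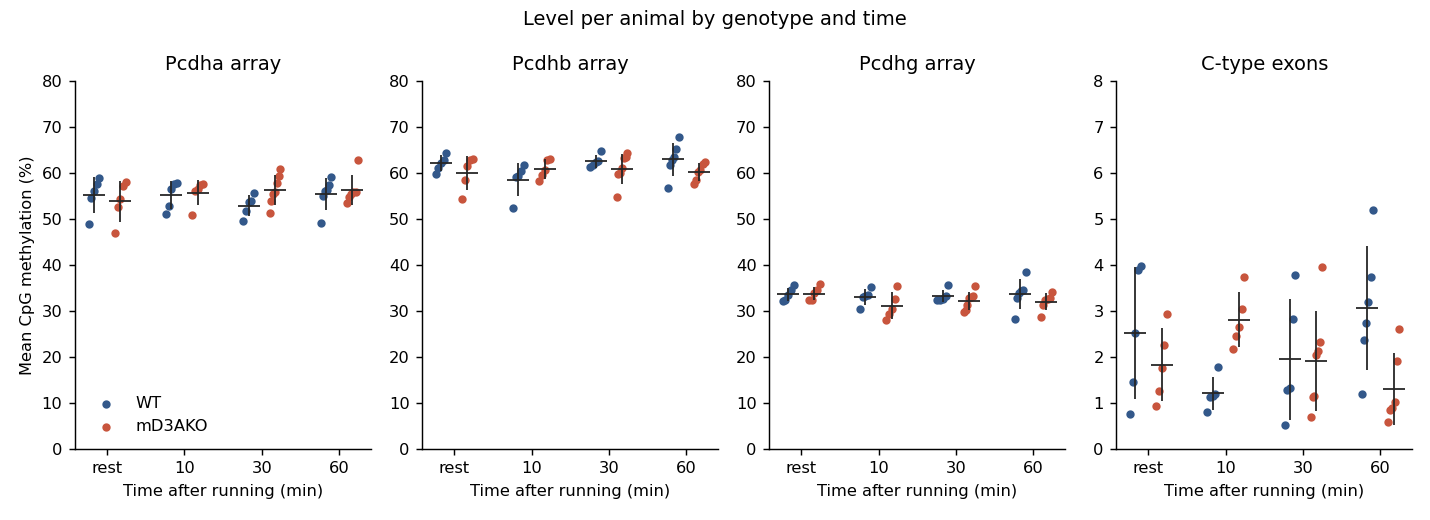
Mean CpG methylation (%) per muscle at rest and 10, 30 and 60 min after running for the 3 arrays and the C-type exons, which have a scale of their own. Dots are muscles, WT in blue and mD3AKO in red, and black marks give mean ± SD of each group (n = 5 to 7). The array levels of the genotypes overlap at each time, and in the C-type exons at 10 min the 5 mD3AKO muscles lie above the 5 WT muscles.

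Cluster by cluster, edgeR called 0 of 47 clusters for time, beside 0.0% of all clusters, with 2 at an unadjusted p under 0.05. The likelihood ratio test called 0 with 1, and limma 0 with 2. The lowest time p was at Pcdhb17 (chr18:37486938-37486995, 4 CpGs), where WT muscles were at 71.3% ± 9.32 (SD, n = 5) at rest, 59.5% ± 6.01 (n = 5) at 10 min, 68.5% ± 4.86 (n = 5) at 30 min and 63.1% ± 7.91 (n = 6) at 60 min. In mD3AKO the values were 69.1% ± 9.59, 62.0% ± 8.76, 67.9% ± 3.39 and 56.6% ± 5.36 (n = 5, 5, 7 and 6). Both genotypes were lower at 10 and 60 min than at rest and 30 min (edgeR adjusted p = 1.0). For genotype by time edgeR called 0 of 47 clusters, beside 0.00196% of all clusters, with 3 at an unadjusted p under 0.05. The likelihood ratio test called 0 with 2, and limma 0 with 4.

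The lowest interaction p was at Pcdhac2 (edgeR adjusted p = 1.0). Its cluster was at 2.49% ± 2.00 (SD, n = 5) at 10 min and 7.31% ± 2.27 (n = 6) at 60 min in WT, and at 10.6% ± 6.09 (n = 5) and 2.45% ± 2.36 (n = 6) in mD3AKO. Over all C-type exons, a set examined for interaction after its values had been seen, WT muscles at 10 min were at 0.793, 1.12, 1.15, 1.18 and 1.77% and mD3AKO muscles at 2.18, 2.45, 2.65, 3.03 and 3.73%. At 60 min they were at 1.18 to 5.19% in WT and 0.574 to 2.60% in mD3AKO. The exact permutation tests gave p = 0.00794 at 10 min and p = 0.0173 at 60 min, not adjusted for the choice of this set. At rest the means were 2.52% ± 1.44 (SD, n = 5) and 1.83% ± 0.799 (n = 5, exact permutation test, p = 0.357), and at 30 min 1.94% ± 1.33 (n = 5) and 1.91% ± 1.08 (n = 7, exact permutation test, p = 0.967). The groups did not overlap at 10 min and overlapped at the other times, with mD3AKO higher at 10 min and lower at 60 min. The interaction F was 4.95 (permutation test, p = 0.006, adjusted p = 0.06 over 10 sets of CpGs). For the CpG of Pcdhac2 at 1369 bp alone it was 4.01 (permutation test, p = 0.0132). At 10 min this CpG was at 19.3% ± 7.84 (SD, n = 5) in WT and 38.7% ± 19.3 (n = 5) in mD3AKO. At 60 min it was at 48.2% ± 25.9 (n = 6) and 18.1% ± 17.4 (n = 6). Without this CpG the interaction F of the C-type exons was 2.15 (permutation test, p = 0.113). At 10 min the mD3AKO muscles then overlapped the WT muscles, at 0.760 to 2.11% and 0.0364 to 1.14%. The means at 10 min were then 0.559% ± 0.408 (SD, n = 5) in WT and 1.53% ± 0.609 (n = 5) in mD3AKO (exact permutation test, p = 0.0317), and at 60 min 1.46% ± 0.974 (n = 6) and 0.707% ± 0.423 (n = 6, exact permutation test, p = 0.119). The genotypes thus kept their order at both times without this CpG, while the interaction no longer had a p under 0.05. Levels this low are near those of the unmethylated Taf7 promoter cluster, at 0.0 to 1.29% in WT and 0.0 to 1.38% in mD3AKO muscles. Incomplete bisulfite conversion, which would also be read as methylation, was not measured. The 10 and 60 min samples belong to different sets of sample numbers.

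The spread between animals was wide at single CpGs. For members at 20 to 80%, the median SD between WT muscles was 19.4 percentage points, whereas counting error alone gives 5.77. The same values for CpGs outside the locus were 19.0 and 5.85, so the locus did not stand out in this. PCR copies are counted as calls, and the number of DNA molecules behind a call was not measured. How far muscles deviated together from their group was also described. The median correlation of these deviations over the 44 muscles was 0.155 for 184 pairs of CpGs up to 100 bp apart in the same cluster, which share reads. It was 0.00479 for 2424 pairs in different genes of an array and 0.00913 for 4034 pairs in different arrays.

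No correlation between the levels of whole arrays passed the test. In WT, Pearson's r was -0.0704 between Pcdha and Pcdhb, 0.323 between Pcdha and Pcdhg and 0.257 between Pcdhb and Pcdhg (n = 21, permutation p = 0.765, 0.155 and 0.25, adjusted p = 0.877, 0.749 and 0.749). Spearman's rho was -0.00909, 0.344 and 0.0481 (permutation p = 0.971, 0.128 and 0.837). In mD3AKO, r was 0.0476, -0.0351 and 0.158 (n = 23, permutation p = 0.83, 0.877 and 0.468, adjusted p = 0.877 for all 3), and rho was -0.0178, 0.0227 and 0.272 (permutation p = 0.937, 0.92 and 0.209). Without the 2 muscles farthest from the median of the first array, r was -0.0305, 0.0273 and -0.0347 in WT and 0.0454, -0.0842 and 0.477 in mD3AKO.

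Related genes outside the locus were examined by the same cluster test. Of 45 clusters of non-clustered protocadherins, which are adhesion proteins of the same family that lie alone in the genome, edgeR called 0 for genotype. The lowest p belonged to Pcdh20, Pcdh9 and Pcdh12, at adjusted p = 0.225, 0.468 and 0.624. Of 166 clusters of other cadherins, 1 was called. This was Dchs1, a large cadherin of the planar polarity pathway, where 6 CpGs (chr7:105777849-105778035) fell from 13.3% ± 6.45 (SD, n = 21) in WT to 4.43% ± 2.88 (SD, n = 23) in mD3AKO, with a log2 odds ratio of -1.84 ± 0.45 (SE, edgeR adjusted p = 0.0271). Cdh23 and Cdh2 followed at adjusted p = 0.102 and 0.106. Of 86 Hox clusters 0 were called, with Hoxb1, Hoxc4 and Hoxa2 lowest at adjusted p = 0.126, 0.252 and 0.3. Of the 27 clusters of DNA methyltransferases and of factors that act at the arrays 0 were called, with Dnmt3a, Dnmt1 and Setdb1 lowest at adjusted p = 0.134, 0.384 and 0.559. The called shares were 0.0, 0.602, 0.0 and 0.0% beside the 1.04% of all clusters.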

How the data were processed

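RRBS was done on soleus DNA digested with MspI. The submitters' processing notes name Trim Galore 0.4.0, cutadapt 1.9.1, Bismark 0.18.1 and build mm10. The authors deposited counts of methylated and unmethylated calls per CpG and sample, not normalized, after adding both strands and a coverage filter, and the lowest coverage of any listed CpG in any sample was 8 calls. They also deposited cluster, promoter and gene body assignments. Without molecular identifiers PCR copies count as calls, so counting intervals cover counting error only. Samples are separate muscles of separate animals. The 6 of 50 samples not used here had no counts among the deposited values. The study's methods state that samples with few aligned reads were left out because their global methylation differed. Whether this was the reason for these 6 was not checked.

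Variable exons came from GENCODE M21 on GRCm38, the assembly of mm10, as the exon with the coding start of each gene. Levels are unweighted means over CpGs of methylated over all calls, in percent, and cluster levels pool calls. Clusters join CpGs up to 100 bp apart. Calls were summed over clusters, promoters and gene bodies and fitted over all features in edgeR 4.0.16 (R 4.3.3), with a coefficient per sample, 8 group means and a common dispersion from every 10th feature, and quasi-likelihood F tests with Benjamini-Hochberg adjustment. The study's methods use the same kind of model but do not name the edgeR test applied. The number of clusters called depended on that choice, as given below. The study reports more clusters that differed by genotype than the 533 called here with the quasi-likelihood test. Alternatives were the likelihood ratio test, limma 3.58.1 on log2 ratios with a pseudocount of 1, clusters joined at gaps of 50 or 200 bp, CpGs with 20 or more calls, a sex term, the sets of sample numbers 1 to 25 and 26 to 50, pooled calls, depth residuals, permutation within sex and time, and leaving out samples. Levels were tested with 100000 permutations, or exactly in groups under 10, in Python 3.11.15. These tests were two-sided except those of F statistics, which count permuted values at least as large as the observed one. The tests were checked on simulated data.

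Named exons and clusters follow a rule: C-type exons, extremes per array among exons with at least 5 CpGs, called clusters and CpGs, the 5 clusters and 3 CpGs with the lowest genotype p, the cluster with the lowest time and interaction p, and the largest clusters. Lists were 10 non-clustered protocadherins, 24 other cadherins (22 with CpGs), 14 array and methylation factors, 35 Hox genes and markers of muscle fibres, other muscle cells and neurons. The members and lists were chosen with earlier results of these data known. No sequence is printed.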

Additional observations from a re-analysis of the deposited data

Results flagged for a closer look

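In 80 sets of levels (10 sets of CpGs in 8 groups), 9 had a muscle whose gap to the rest was over Dixon's 95% critical value. Chance gives about 1 in 20 for a single set. The 10 sets share CpGs, so the 80 are not independent and the 9 cannot be weighed against that rate. The WT muscle numbered 42 at 10 min accounted for 3 of the 9, in sets that overlap. Its level was 37.6% over the whole locus, where the other 4 of its group were at 40.5 to 41.4%. It was at 52.3% over the Pcdhb array, with the others at 59.0 to 61.7%, and at 52.8% over Pcdhb exons, with the others at 60.3 to 62.4%. Outside the locus it was at 24.7%, within the range of all muscles (23.2 to 26.6%), and it had 17282 calls in the locus. Over the Pcdha array, mD3AKO muscle 19 at 60 min was at 62.8% beside 53.5 to 55.9%, and it had the fewest calls in the locus of all muscles, 11589. The mD3AKO muscle 39 at 10 min was at 50.9% over Pcdha beside 56.1 to 57.5%. Over Pcdhg, WT muscle 38 at 30 min was at 35.6% beside 32.4 to 33.2%. Over Pcdhb exons, mD3AKO muscle 27 at 30 min was at 54.3% beside 61.9 to 64.7%. Over the upstream windows, mD3AKO muscle 12 at rest was at 22.2% beside 10.5 to 13.8%. Over CpGs outside the arrays, WT muscle 9 at 60 min was at 17.3% beside 11.6 to 13.7%. Leaving out each muscle in turn brought no genotype difference in level, overall or at a time, no F of time and no count of clusters called for genotype past the threshold. Position differences, correlations and genotype by time were not refitted without these muscles.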

How the results depend on the processing

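The counts of called clusters, CpGs, promoters and gene bodies in the locus were 0 under each of 24 alternatives, and that of clusters called for genotype was 0 in each of 44 fits that left out 1 muscle. With 2 choices changed together, the likelihood ratio test called 1 cluster of the locus for genotype by time at a coverage minimum of 20 and 1 at a gap of 200 bp (smallest adjusted p = 0.0153 and 0.0426 in edgeR), settings added after the data had been seen. Over all clusters the genotype count went from 533 to 1506 with the likelihood ratio test, 895 with limma, and 22 and 26 in samples 1 to 25 and 26 to 50. The time count over all clusters was 0, and 409 with the likelihood ratio test. That for genotype by time was 1, and 427 with that test. Position differences kept direction and call in all 7 alternatives. For Pcdhb exons minus upstream windows, both alternatives gave the main value of 56.0 again, so they were no check of it. For Pcdhg the alternatives gave 24.0 to 27.8, and the lowest of these is the main value. F of time stayed short of the threshold in 8 alternatives and 176 fits without 1 muscle. No genotype difference in level passed the threshold under any alternative, but several small ones changed sign, for which the cause was not tested. With a coverage minimum of 20, Pcdhb exons were at 0.270 and CpGs outside the arrays at 0.0535 percentage points. With depth residuals the rest of the arrays was at -0.00152. Samples 1 to 25 gave -0.190 for Pcdha, and samples 26 to 50 gave 0.343 for Pcdhb, 0.569 for Pcdhb exons, 0.713 for C-type exons, 0.664 for upstream windows and -0.247 for the rest of the arrays. Leaving out 1 muscle moved the rest of the arrays from -0.357 to 0.424. At single times, pooled calls gave 1.13 at 10 min for the whole locus, and at rest 1.17 for Pcdha and -0.860 for Pcdhg. Leaving out 1 muscle gave -2.97 to 0.297 for Pcdha at rest, -0.319 to 0.675 for Pcdhg at rest, -0.552 to 1.65 for Pcdha at 10 min, -1.12 to 0.153 for the whole locus at 10 min and -0.469 to 1.56 for Pcdha at 60 min. With pooled calls, r between Pcdha and Pcdhb in WT was 0.0540 and between Pcdha and Pcdhg in mD3AKO 0.267. No paired analysis was possible because each animal has a number of its own. A CpG of the locus had as few as 8 calls in a muscle.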
